A study of Mus musculus with 26 samples.

Results

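The genes described here encode chaperones of the mitochondrial matrix, the innermost compartment of the mitochondrion. They are Hspd1 (Hsp60), Hspe1 (Hsp10), Hspa9 (the mitochondrial Hsp70, also called mortalin) and Trap1 (the mitochondrial Hsp90). These 4 members are given by name and are 4 of the 13765 genes in the deposited table. The list was chosen by normalised counts in the same samples, since Hspd1 and Hspe1 were already known to differ between the tissues. Their differences between tissues are therefore given as descriptions with standard errors and without a test.

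Most matrix proteins are made in the cytosol and threaded unfolded through the mitochondrial membranes. Hspa9 binds the incoming chain, helps to pull it in and assists its folding. Hspd1 assembles into a barrel that encloses an unfolded protein, and Hspe1 is the lid that closes the barrel. Trap1 is an ATP-dependent chaperone that acts on proteins that are already partly folded. Hspd1 and Hspe1 are known targets of heat shock factor 1, and chaperones of this compartment are also known to respond to the mitochondrial unfolded protein response, in which damaged matrix proteins signal to the nucleus.

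The study measured polyadenylated RNA from CD4+CD8+TCRb- double-positive (DP) lymphocytes, the stage of T cell development that fills the thymic cortex. The mice were female, of strain C57BL/6J and 8 weeks old. Cells were sorted from the thymus, the mediastinal adipose tissue and the aortic arch, and the labels name no allele or agent for any group. Each tissue had 4 pools of 5 mice, and the 26 libraries of 200 cells each (9 from thymus, 8 from adipose tissue, 9 from arch) had been combined into 1 column of values per pool. The arch and adipose tissue were digested with enzymes before sorting, which the labels do not state for the thymus, so tissue and preparation cannot be told apart. Values are normalised read counts, which divide each pool's reads by a scaling factor.

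The 12 columns held between 11577253 and 34599519 reads. Divided by its number of libraries, the total was lowest in arch pool 2, thymus pool 3 and arch pool 4, named the 3 shallow columns here. Per column, adipose pool 2 with its 1 library also held fewer reads (14279190) than arch pool 4 (14291241). All 8 DP markers were detected in each tissue, and their summed level was 16007 to 19405 CPM (reads scaled to a common column total) in thymus, 5072 to 10713 CPM in adipose pools and 6378 to 7136 CPM in arch pools. Markers of other cells were uneven. The 8 fibroblast genes reached 181.5 CPM in pool 2 of the arch, 3764 CPM in its pool 4 and 115.3 CPM in adipose pool 1, against at most 3.83 CPM in thymus, where 4 of them were at 0. Macrophage genes reached 968.6 CPM in the same arch pool 2 and 243.1 CPM in adipose pool 1, and smooth muscle genes 1573 CPM in arch pool 2. The summed B cell genes lay at 71.0 to 213.7 CPM in thymus. They were higher in adipose pool 1, at 1232 CPM, and in arch pool 2, at 309.2 CPM. Endothelial and adipocyte genes were also highest in adipose pool 1, at 222.2 and 184.6 CPM, against at most 108.4 and 0.0870 CPM in thymus. The 3 columns named below as carrying other cells' markers are arch pools 2 and 4 and adipose pool 1. Arch pool 1, not among them, also held 22.7 CPM of fibroblast and 42.0 CPM of smooth muscle genes. In thymus the smooth muscle genes reached at most 3.31 CPM. In bulk RNA of this kind, fewer cells of a type and less RNA per cell cannot be told apart. The p-values below measure the spread between pools of mice.

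Hspd1 and Hspe1 lie head to head on mouse chromosome 1, with overlapping 5′ ends, and are read from opposite strands. In GENCODE vM21 on GRCm38, Hspd1 (ENSMUSG00000025980.14) spans chr1:55077835-55088243 on the minus strand with 12 exons, and Hspe1 (ENSMUSG00000073676.4) spans chr1:55088132-55091307 on the plus strand with 4 exons. The 112 bases from 55088132 to 55088243 belong to both genes. The strand setting of the counting is not given in the sources used here, and reads in that overlap cannot be told apart. RefSeq also lists 23 pseudogenes of Hspd1, 7 of Hspe1, 1 of Hspa9 and 0 of Trap1. None of these pseudogenes has a row in the table, so reads shared with a near copy make the counts of the first 3 genes uncertain.

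The start region of the pair is shown because both genes start in the same stretch of DNA and are read in opposite directions. The sequences are RefSeq's for GRCm38.p6 and cover 250 bases before to 50 bases after an annotated start, written 5′ to 3′ on the gene's strand. The Hspe1 window is chr1:55087898-55088197, plus strand, with the start at 55088148. RefSeq gives Hspd1 a start at 55088243, whose window is chr1:55088194-55088493 on the minus strand, and another at 55087932. The window of the latter, chr1:55087883-55088182, shares 285 bases with that of Hspe1 and is not printed again. Capitals mark a heat shock element, the repeated motif bound by heat shock factors.
Hspe1: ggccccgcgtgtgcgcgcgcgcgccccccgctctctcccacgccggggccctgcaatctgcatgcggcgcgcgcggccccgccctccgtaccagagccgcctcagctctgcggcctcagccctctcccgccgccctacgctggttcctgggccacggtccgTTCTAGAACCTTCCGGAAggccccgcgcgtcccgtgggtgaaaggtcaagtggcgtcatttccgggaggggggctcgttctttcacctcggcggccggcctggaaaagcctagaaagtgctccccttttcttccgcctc
Hspd1, start at 55088243: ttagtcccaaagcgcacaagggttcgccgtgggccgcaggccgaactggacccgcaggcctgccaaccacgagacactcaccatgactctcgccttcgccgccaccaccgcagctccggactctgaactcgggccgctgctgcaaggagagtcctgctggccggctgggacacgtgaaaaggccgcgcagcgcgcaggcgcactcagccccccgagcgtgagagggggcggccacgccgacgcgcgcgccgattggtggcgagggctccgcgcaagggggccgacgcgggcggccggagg
The GC content was 71.0% for the Hspe1 window and 72.3% for the printed Hspd1 window. The marked run is at chr1:55088059-55088076 and holds 4 alternating units, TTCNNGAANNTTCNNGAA. It lies 72 to 89 bases before the Hspe1 start and 127 to 144 bases before the Hspd1 start at 55087932. It also lies 167 to 184 bases inside Hspd1 counted from the start at 55088243. The same DNA on each strand, with 6 flanking bases, shows that the pattern of units reads the same on either strand.
Hspe1 strand: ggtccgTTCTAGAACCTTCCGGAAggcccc
Hspd1 strand: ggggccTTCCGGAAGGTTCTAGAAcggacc

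**Figure D1:**
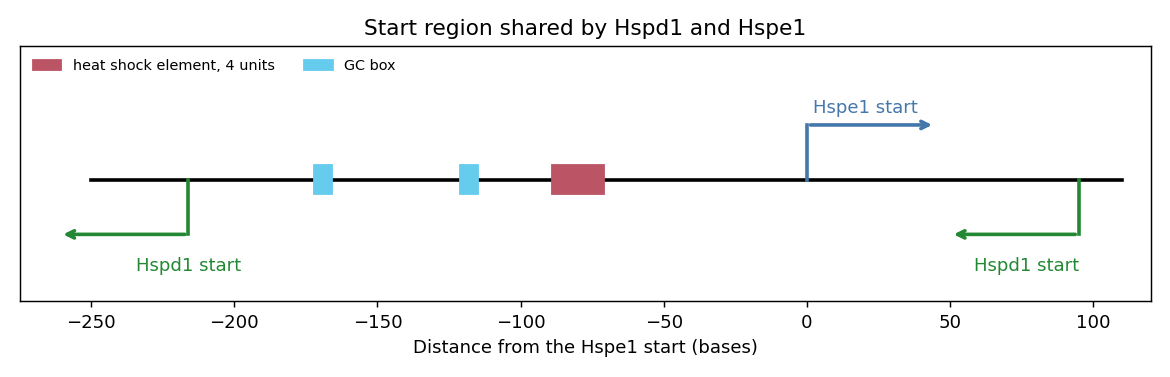
Start region of Hspd1 and Hspe1, with distance from the Hspe1 start in bases on the horizontal axis. Arrows mark the annotated starts and the direction of reading, and the red box marks the heat shock element of 4 units. The light blue boxes mark GC boxes (GGGCGG or its complement) in the Hspe1 window. GC boxes outside that window, such as those near the Hspd1 start at 55088243, are not drawn. The element lies 72 to 89 bases before the Hspe1 start, between the Hspe1 start and the Hspd1 start at 55087932.

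Both orders of the 4 units, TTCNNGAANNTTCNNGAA and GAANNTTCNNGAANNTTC, were searched on both strands of all 32851 RefSeq windows of the same length. Only 8 windows (0.0244%) held one, belonging to 8 of 27025 genes (0.0296%), and Hspd1 and Hspe1 count among these 8 through the same stretch of DNA. Elements of 3 units (TTCNNGAANNTTC or GAANNTTCNNGAA), which every element of 4 units also contains, were in 198 windows (0.603%) of 179 genes. Of the genes with an element of 4 units, 5 were in the tested set. Besides the pair these were Arpc2, Chordc1 and Kctd18, with differences between arch and thymus of -0.34, 0.30 and 0.15 on the log2 scale, none past the limma test. A match describes letters in a window and does not show that a factor binds there.

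Trap1 (ENSMUSG00000005981.11) spans chr16:4039971-4077827 on the minus strand with 18 exons. Its window, chr16:4077761-4078060 with the start at 4077810, is shown beside those of the pair. It held no heat shock element of 2 or more units, like most windows. Elements of 2 units (TTCNNGAA or GAANNTTC) were in 4946 of the 32851 windows (15.1%). No window was available for Hspa9. Capitals mark a cAMP response element, TGACGTCA, 40 to 47 bases before the start.
Trap1: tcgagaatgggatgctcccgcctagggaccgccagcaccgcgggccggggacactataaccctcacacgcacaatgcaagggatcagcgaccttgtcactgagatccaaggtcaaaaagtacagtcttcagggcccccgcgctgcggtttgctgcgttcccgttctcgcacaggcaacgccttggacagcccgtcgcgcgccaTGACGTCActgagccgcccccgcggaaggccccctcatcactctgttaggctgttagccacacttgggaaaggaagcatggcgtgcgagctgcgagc
That motif was in 588 of the 32851 windows (1.79%), and the GC content of the Trap1 window was 62.7%.

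Hspd1, the barrel of the chaperonin, was lowest in thymus and highest in arch. Its normalised counts in thymus pools 1 to 4 were 4691, 2536, 4390.1 and 1477. In adipose tissue they were 7850.02, 6763, 15622 and 5369.9, and in arch 28363, 42014, 49774 and 34183. Every adipose pool lay above every thymus pool and every arch pool lay above every adipose pool. The means were 3274 ± 1531, 8901 ± 4594 and 38583 ± 9324 (SD, n = 4 pools each). On the scale used for testing, log2(normalised count + 20), Hspd1 was higher in arch than in thymus by 3.66 ± 0.35 (SE), in adipose tissue than in thymus by 1.46 ± 0.35 and in arch than in adipose tissue by 2.20 ± 0.35. Of 9106 genes tested, 6.60% had every arch pool above every thymus pool, 5.48% every adipose pool above every thymus pool and 2.46% every arch pool above every adipose pool.

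Hspe1, the lid, kept the same order of tissues with wider steps. Its normalised counts were 2339, 1127, 1341 and 1703 in thymus and 9101, 3899, 15760.3 and 4336 in adipose tissue. In arch they were 35799.7, 100009, 58835 and 86798. The pools of the 3 tissues did not overlap, and adipose pool 3 stood highest within its tissue for Hspe1 as it did for Hspd1. The means were 1628 ± 531, 8274 ± 5519 and 70361 ± 28732 (SD, n = 4). The log2 difference was 5.37 ± 0.40 (SE) between arch and thymus, 2.15 ± 0.40 between adipose tissue and thymus and 3.22 ± 0.40 between arch and adipose tissue. As ratios of means these steps were 43.2, 5.08 and 8.504, where Hspd1 had 11.8, 2.72 and 4.33. The full order, thymus below adipose tissue below arch in every pool, was seen for 39 of the 9106 genes (0.428%), and the rule that chose these members rested on levels in the same samples.

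Hspa9 (ENSMUSG00000024359.10), the matrix Hsp70, showed no such order. Its normalised counts were 2312, 1891, 5825 and 1336 in thymus, 3782, 2463, 4409.7 and 3801 in adipose tissue and 3805, 934, 1903 and 2974 in the arch. The highest and the second lowest of the 12 values were both in thymus, and all 3 tissues overlapped. The means were 2841 ± 2029, 3614 ± 821 and 2404 ± 1252 (SD, n = 4). The log2 difference was -0.19 ± 0.47 (SE) between arch and thymus, 0.54 ± 0.47 between adipose tissue and thymus and -0.73 ± 0.47 between arch and adipose tissue. The first of these turned sign in 5 of 25 alternative settings and reached 0.57 without the 3 shallow columns, so no order of arch and thymus can be given for Hspa9.

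Trap1, the matrix Hsp90, was low in 3 of the 4 arch pools. Its normalised counts were 1629, 1444, 367 and 2383 in thymus, 1559.7, 998, 1462 and 2978 in adipose tissue and 165, 137, 1915 and 99.5 in the arch. Arch pool 3 stood within the range of the other tissues, while the other arch pools lay below every thymus and adipose pool. Those 3 arch pools rested on 203, 72 and 64 reads, against 2371 in pool 3. The means were 1456 ± 832, 1749 ± 855 and 579 ± 891 (SD, n = 4), and the arch mean without pool 3 was 133.9. The log2 difference was -2.10 ± 0.82 (SE) between arch and thymus and -2.51 ± 0.82 between arch and adipose tissue, and without arch pool 3 these were -3.01 and -3.43. Without arch pools 2 and 4 and adipose pool 1, which carried markers of other cells, they were -1.03 and -1.47. Between adipose tissue and thymus it was 0.42 ± 0.82, and this value turned to -0.14 without thymus pool 3.

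**Figure D2:**
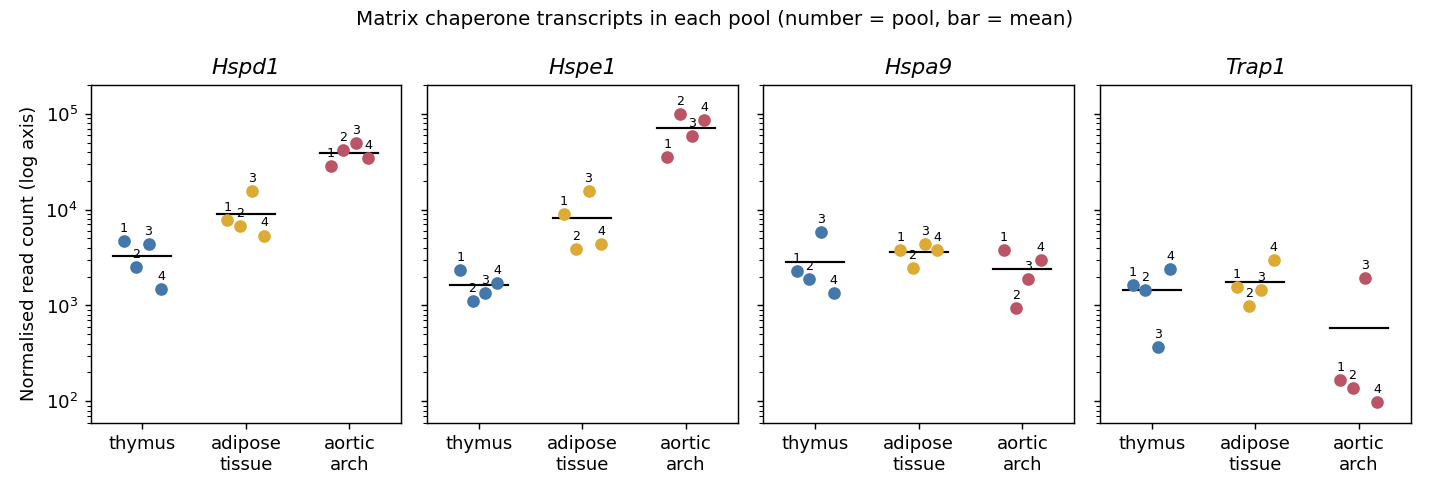
Normalised counts of Hspd1, Hspe1, Hspa9 and Trap1 in each pool on a logarithmic vertical axis, with 1 panel per gene and 1 group of points per tissue; bars show means. Hspd1 and Hspe1 form 3 separate groups in rising order from thymus to arch, Hspa9 overlaps across all tissues, and Trap1 has 3 low arch pools with pool 3 at 1915.

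The position of each gene among all genes shows the same split. Ranked by mean normalised count among the 13765 genes, Hspe1 held position 2797 in thymus, 415 in adipose tissue and 13 in the arch. Hspd1 was at 1318, 374 and 50. Hspa9 stayed between 1197 and 1949, and Trap1 was at 3085, 2665 and 5468. Reads of Hspd1 and Hspe1 together made up 0.0359, 0.0184, 0.0292 and 0.0168% of all reads in the thymus pools and 0.0870, 0.0514, 0.153 and 0.0482% in the adipose pools. In the arch pools they made up 0.302, 0.645, 0.507 and 0.544%.

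The barrel and the lid did not keep a fixed ratio. Levels of different genes were compared per kilobase (kb) of the longest coding transcript, which is 2423 bases for Hspd1, 774 for Hspe1, 3049 for Hspa9 and 2320 for Trap1. On this scale the ratio of Hspe1 to Hspd1 was 1.56, 1.39, 0.957 and 3.61 in the thymus pools and 3.63, 1.80, 3.16 and 2.53 in the adipose pools. In the arch pools it was 3.95, 7.45, 3.70 and 7.95. Every arch pool lay above every adipose pool, although thymus pool 4 reached the adipose range. The mean ratios were 1.88 ± 1.18, 2.78 ± 0.791 and 5.76 ± 2.25 (SD, n = 4).

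Within the arch the ratio differed between the pools with fewer and with more reads per library. The shallow pools 2 and 4, in which fibroblast markers were also highest, had ratios of 7.45 and 7.95, and pools 1 and 3 had 3.95 and 3.70. The Hspe1 counts differed in the same way, with both shallow pools above the other two, while those of Hspd1 did not. The part of depth or of other cells in the ratio was not tested. Without arch pools 2 and 4 and adipose pool 1, the log2 difference between arch and thymus was 3.65 for Hspd1 and 4.85 for Hspe1, and between adipose tissue and thymus it was 1.48 and 2.02.

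The means of the 4 genes per kb kept the same order in each tissue, but the gaps between them differed. The place of Hspe1 rests on the division by transcript length. By mean normalised counts it stood below Hspd1 in thymus (1628 against 3274) and adipose tissue (8274 against 8901), and above it in arch. In thymus the means were 2103 ± 686 for Hspe1, 1351 ± 632 for Hspd1, 932 ± 665 for Hspa9 and 628 ± 359 for Trap1 (SD, n = 4, normalised counts per kb), and each neighbour in this order overlapped the next. In adipose tissue they were 10690.2 ± 7130.3, 3674 ± 1896, 1185 ± 269 and 754 ± 369, and Hspd1 lay above Hspa9 in every pool. In arch they were 90905 ± 37121, 15924 ± 3848, 788 ± 410.5 and 250 ± 384. There, Hspe1 lay above Hspd1 and Hspd1 above Hspa9 without overlap, while Hspa9 and Trap1 overlapped. The ratio of Hspd1 to Hspa9, the chaperonin barrel against the Hsp70 that hands proteins to it, was 0.948 to 2.55 in thymus, 1.78 to 4.46 in adipose tissue and 9.38 to 56.6 in the arch.

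**Figure D3:**
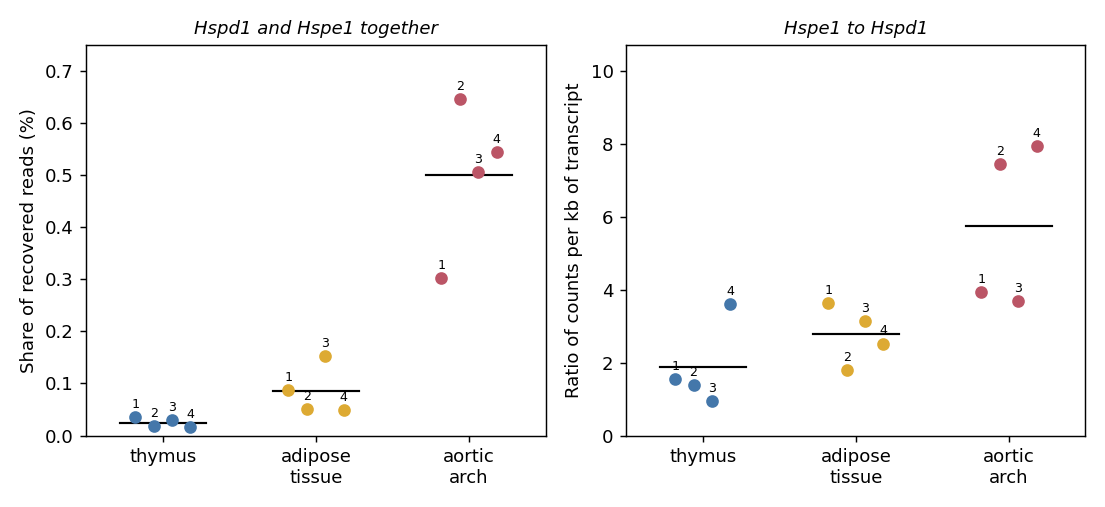
Share of recovered reads taken by Hspd1 and Hspe1 together in percent (left) and the ratio of Hspe1 to Hspd1 in normalised counts per kb of transcript (right), for each pool; numbers give the pool and bars the mean. The share is 0.302 to 0.645% in arch against at most 0.153% elsewhere, and the ratio is highest in arch pools 2 and 4, at 7.45 and 7.95.

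The other genes of the matrix protein machinery were examined through 4 lists: partners of Hspa9, proteases and processing enzymes, the import channels and the enzymes of the citric acid cycle, which are matrix proteins that themselves need folding. Of 77 listed genes, 75 were in the table and 74 were tested. By limma with Benjamini-Hochberg adjustment over all 9106 genes, 0 of 74 passed an adjusted p of 0.05 between arch and thymus, where 6.57% of all tested genes passed. At an unadjusted p under 0.05 there were 2 higher and 13 lower of the 74, beside 936 higher and 1133 lower of all 9106. The smallest adjusted p of the 74 was 0.0571. The edgeR test called 0 higher and 1 lower (Dnajc28), and DESeq2 called 1 higher (Grpel1) and 5 lower (Dnajc15, Dnajc28, Immp1l, Ogdh and Sdhb). Over all tested genes edgeR called 278 higher and 87 lower of 9106, and DESeq2 620 higher and 387 lower of 9046. The median log2 difference of the 74 genes was -0.26, beside -0.20 over all tested genes. The range of the 74 genes was -3.77 (Dnajc28) to 1.69 (Clpp). Hspd1 and Hspe1, at 3.66 and 5.37, were already known to differ, so their place beyond this range is no test.

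Partners of Hspa9 gave 0 calls among 12 genes, with a median of -0.46. Grpel1, the nucleotide exchange factor that resets Hspa9, had normalised counts of 3948, 5027, 5073 and 2847 in thymus and 4529, 8214, 10264 and 5975 in arch. The arch pools reached higher but overlapped those of thymus, and the log2 difference of 0.75 ± 0.28 (SE) had an adjusted p of 0.122 by limma. Dnajc15, a J-domain protein of the import motor, was the most abundant partner, with 7912 ± 1836 in thymus and 4519 ± 1069.6 in arch (SD, n = 4) and an adjusted p of 0.0949. Dnajc28 had 2094 reads over the thymus pools and 0 over the arch pools. Its mean was at least 144-fold lower in arch, taking 3 reads in each arch pool as the floor, and its adjusted p by limma was 0.0630.

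Proteases gave 0 calls among 21 genes with a median of -0.47. The 2 most abundant were Yme1l1, an inner-membrane protease, at -0.47 ± 0.32 (SE), and Phb2, a prohibitin that forms rings in that membrane, at -0.76 ± 0.35. Lonp1 and Clpp, the proteases that degrade matrix proteins, were looked up after the values were seen. They stood at -2.97 ± 1.23 and 1.69 ± 0.88 with adjusted p of 0.157 and 0.268 by limma, in opposite directions. Import genes gave 0 calls among 23 with a median of -0.04. The channel subunit Timm23 was at 0.38 ± 0.22 and the receptor Tomm22 at 0.29 ± 0.28. Citric acid cycle enzymes gave 0 calls among 18 with a median of -0.27, and Mdh2 and Pdhb, the most abundant, were at -0.25 ± 0.28 and 0.45 ± 0.24.

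Between adipose tissue and thymus, limma again called 0 of the 74 machinery genes, where 2.84% of all tested genes passed. Without adjustment 0 were higher and 1 was lower at p under 0.05, beside 727 higher and 440 lower of all 9106 tested genes. Neither edgeR nor DESeq2 called any (0 each). Over all tested genes edgeR called 170 higher and 42 lower, and DESeq2 398 higher and 141 lower. The median was 0.04, beside -0.01 over all tested genes, with Hspd1 at 1.46 and Hspe1 at 2.15. Between arch and adipose tissue limma called 0 of 74, where 0.176% of tested genes passed. At an unadjusted p under 0.05 there were 1 higher and 8 lower, beside 320 higher and 634 lower of all 9106 tested genes. The edgeR test called 0 and DESeq2 called 1 (Dnajc28). Over all tested genes edgeR called 4 higher and 4 lower, and DESeq2 65 higher and 102 lower. The median was -0.35, beside -0.17 over all tested genes. The comparisons share their samples in pairs, so they are not independent of each other.

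Among regulators of the mitochondrial unfolded protein response, some genes were called. Of 15 listed genes 14 were in the table and 11 were tested, and 3 were higher and 0 lower in arch than in thymus by limma, where 3.99% of all tested genes were higher and 2.58% lower. Atf4, the transcription factor translated under the integrated stress response, had normalised counts of 2282, 2554, 916 and 1683 in thymus, 6293, 2550.2, 5770.02 and 3322 in adipose tissue and 6402, 7030.5, 5035 and 9092 in the arch. All arch pools lay above all thymus pools, and the log2 difference was 1.95 ± 0.37 (SE, adjusted p = 0.00269 by limma). Without the 3 shallow columns it was 1.40 with an adjusted p of 0.0685. For adipose tissue against thymus Atf4 was at 1.26 ± 0.37 with an adjusted p of 0.0785.

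Ddit3, which encodes CHOP, a factor induced downstream of Atf4, rose by 1.94 ± 0.51 (SE, adjusted p = 0.0274 by limma). Its normalised counts were 619.8 to 846 in thymus and 2287 to 3601 in arch, with no overlap. This call was lost in 5 of the 12 fits that left out a pool (thymus pools 1, 2 and 4, arch pools 2 and 3), where the adjusted p reached 0.0674, while the difference stayed at 1.82 to 2.03 over the 12 fits. It was also lost without the 3 columns that carried other cells' markers, at a difference of 1.80 and an adjusted p of 0.119, and without the 3 shallow columns, at 1.88 and an adjusted p of 0.143 by limma. Cebpb, a leucine-zipper partner of CHOP, had normalised counts of 1.13, 5.98, 239 and 0 in thymus, 1224, 1107, 937 and 1589 in adipose tissue and 555, 4143, 1881 and 4773 in the arch. It was near 0 in 3 of 4 thymus pools, and it rose by 5.72 ± 0.93 in arch and 4.88 ± 0.93 in adipose tissue (adjusted p = 0.000643 and 0.00402 by limma). By edgeR the adjusted p values were 0.0578 and 0.181, past the threshold in neither tissue. Cebpb was highest in the arch pools 2 and 4, where fibroblast markers were also high, and it was called between arch and thymus without those pools and adipose pool 1. Between adipose tissue and thymus Cebpb was the 1 regulator called by limma. There edgeR called 0, and DESeq2 called Atf4 and Ddit3, both higher, but not Cebpb (adjusted p = 0.0517). Over all tested genes in this comparison edgeR called 170 higher and 42 lower of 9106. DESeq2 called 398 higher and 141 lower of 9046. For the regulators between arch and adipose tissue limma, edgeR and DESeq2 each called 0. Without adjustment 1 was lower at p under 0.05, as were 634 of all 9106 tested genes.

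The abundant regulators Ubl5 and Nrf1 were at -0.25 ± 0.26 and -0.17 ± 0.42 between arch and thymus. Hsf1, the heat shock factor itself, was looked up after the values were seen. Its normalised counts were 829.8, 1384, 2613 and 1237 in thymus and 699.5, 576, 1244 and 434 in arch. The tissues overlapped, and the log2 difference of -1.001 ± 0.53 had an adjusted p of 0.269 by limma.

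**Figure D4:**
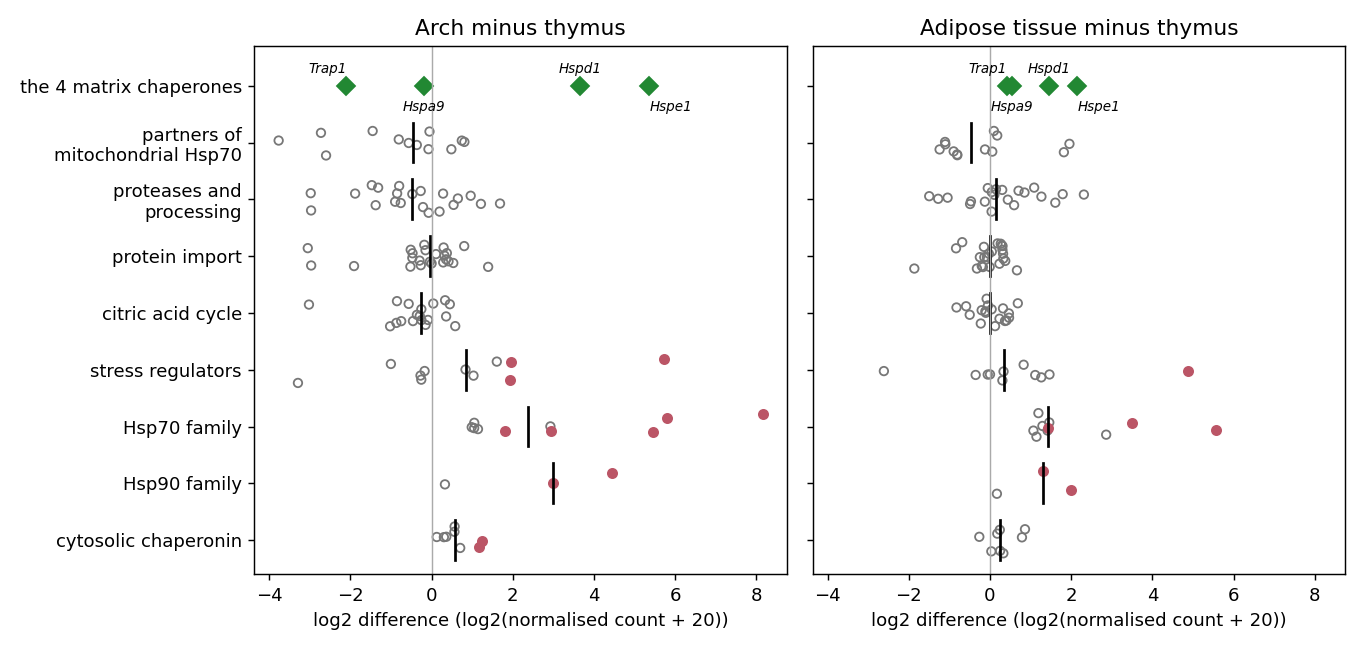
Log2 differences of arch against thymus (left) and adipose tissue against thymus (right) for every tested gene of each list, with filled circles for genes past an adjusted p of 0.05 by limma, open circles for the others and black bars for list medians. The diamonds are the 4 matrix chaperones, drawn without a test. Hspd1 and Hspe1, already known to differ when chosen, lie to the right of all 74 machinery genes in the left panel.

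Each matrix chaperone has relatives in other compartments, and these were compared by family. Like the other lists, these were chosen with earlier results of these data known, so their shares of calls are descriptions. Over all tested genes, 3.99% were higher and 2.58% lower in arch than in thymus. Among Hsp90 relatives, cytosolic Hsp90aa1 and Hsp90ab1 rose in arch by 4.44 ± 0.30 and 2.98 ± 0.31 (SE, adjusted p = 3.4e-08 and 6.0e-06 by limma). Hsp90b1 of the endoplasmic reticulum was at 0.33 ± 0.22 with an adjusted p of 0.402, and Trap1 at -2.10. Among Hsp70 relatives 5 of 10 tested rose and 0 fell. Hspa8, the constitutive cytosolic form, rose by 2.93 ± 0.32 (adjusted p = 1.1e-05) and Hspa5 (BiP), of the endoplasmic reticulum, by 1.80 ± 0.28 (adjusted p = 0.000508), while Hspa9 was at -0.19. The others that rose were Hsph1 and the inducible Hspa1a and Hspa1b. The last 2 are near-identical copies whose reads are uncertain between them, and each had 0 reads in thymus. The call of Hspa1b was lost without the 3 shallow columns, at 4.32 (adjusted p = 0.127 by limma). It was also lost without the 3 columns that carried other cells' markers, at 4.32 (adjusted p = 0.0621 by limma). Against a floor of 3 reads in each thymus pool, Hspa1a was at least 2289-fold higher in arch and at least 551-fold higher in adipose tissue. The family median was 2.36, also with Hspa1a and Hspa1b set at their bounds.

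The cytosolic chaperonin, a ring complex that does in the cytosol what Hspd1 does in the matrix, was also examined. Of its 8 subunits Cct4 and Cct6a rose in arch, by 1.25 ± 0.24 and 1.16 ± 0.32 (SE, adjusted p = 0.00317 and 0.0335 by limma), and the list median was 0.57. The call of Cct6a was lost in 6 of the 12 fits that left out a pool (thymus pools 1, 2 and 3, arch pools 1, 2 and 3), with an adjusted p of up to 0.0892, while the difference stayed at 1.01 to 1.39 over the 12 fits. The abundant subunits Cct5 and Cct8 were at 0.56 ± 0.19 and 0.36 ± 0.25. Between adipose tissue and thymus limma called 2 of 3 Hsp90 relatives (Hsp90aa1 and Hsp90ab1), 3 of 10 Hsp70 relatives (Hspa1a, Hspa5 and Hsph1) and 0 of 8 cytosolic subunits, where 2.17% of all tested genes were higher and 0.670% lower. Between arch and adipose tissue it called Hsp90aa1, Hsp90ab1, Hspa8 and Hsph1, all higher in arch, where 0.0988% of all tested genes were higher and 0.0769% lower. That call of Hsp90aa1 was lost without the 3 shallow columns, at 2.29 (adjusted p = 0.0816 by limma) beside 2.44. It was also lost without the 3 columns that carried other cells' markers (adjusted p = 0.0948 by limma). The other 3 calls were each lost in 6 or 7 of the 12 fits that left out a pool, every one of the arch pools among them, with adjusted p of up to 0.155. Their differences over the 12 fits stayed at 1.34 to 1.96 for Hsp90ab1, 1.55 to 2.00 for Hspa8 and 2.07 to 2.55 for Hsph1. The adipose call of Hsp90ab1 was lost without thymus pool 2 or 4 or adipose pool 1 or 3, with an adjusted p of up to 0.0996 and a difference of 1.02 to 1.64 over the 12 fits.

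The genes whose profiles came closest to each member were found from the root mean square difference of log2 values over the 12 columns, after centring each gene on its mean. This describes likeness over 12 columns that share 3 tissues. Hspd1 was closest to Hsp90aa1 (0.491), Hspa8 (0.555), Wbp5 (0.573), Dnaja1 (0.594) and Hsp90ab1 (0.601), and Hspe1 was at position 23 with 0.885. Hspe1 was closest to Hsp90aa1 (0.586), Hsph1 (0.766), Luzp1 (0.824), Hspd1 (0.885) and Zmynd19 (0.961). By this measure the nearest gene to both was the cytosolic Hsp90aa1 and not the other gene of the chaperonin. The distance also counts the size of the steps. Between arch and thymus Hsp90aa1 differed by 4.44, between Hspd1 at 3.66 and Hspe1 at 5.37. Hspa9 was closest to Aldh7a1 (0.328), Asf1b (0.357), Suv39h1 (0.367), Acat1 (0.397) and Rasa2 (0.398). Of these Aldh7a1 and Acat1 encode metabolic enzymes, and Asf1b and Suv39h1 encode a histone chaperone and a histone methyltransferase. Trap1 was closest to Slc25a40 (0.645), Hsh2d (0.766), Vrk3 (0.775), Zfp429 (0.793) and Miip (0.828), at wider distances. From Hspd1, Hspa9 was at position 2963 and Trap1 at 7352.

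**Figure D5:**
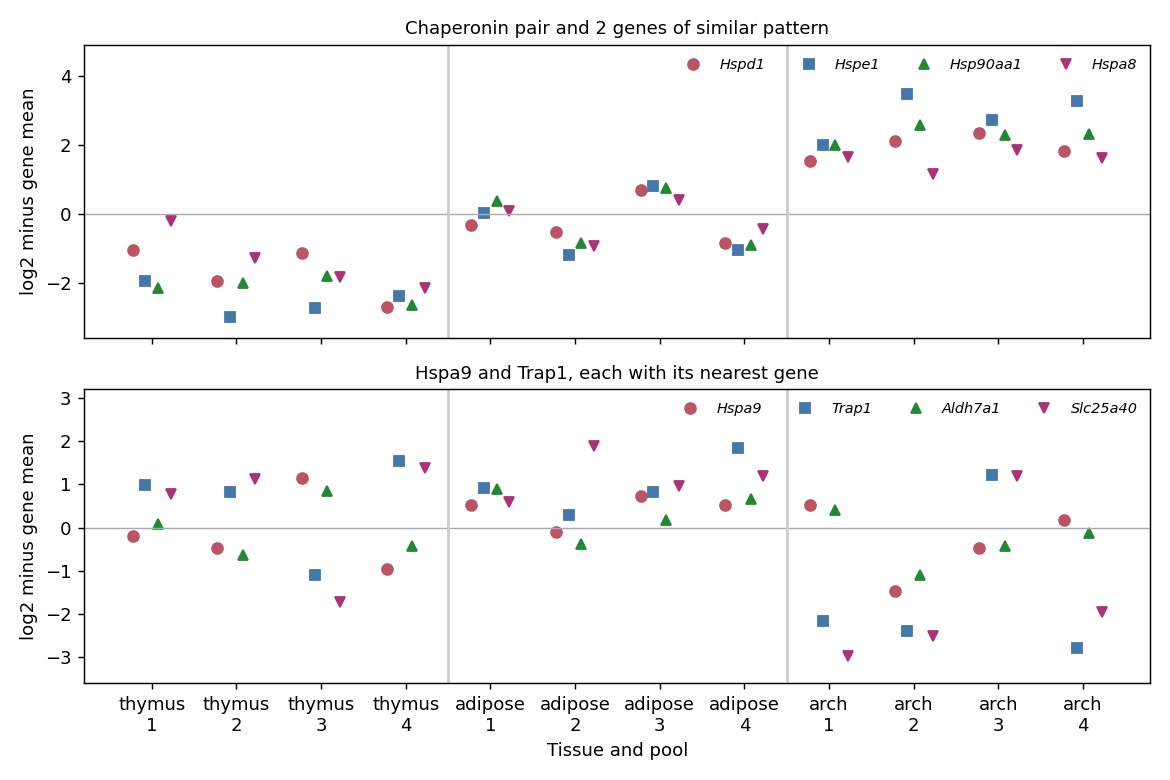
Log2 profiles over the 12 pools, each gene centred on its own mean, for Hspd1 and Hspe1 with Hsp90aa1 and Hspa8 (top) and for Hspa9 and Trap1 each with its nearest gene (bottom). The top genes are highest in the arch pools, while thymus and adipose pools overlap for Hspa8. In arch pool 3 Trap1 and Slc25a40 lie above their own means, and Hspa9 and Aldh7a1 lie below theirs.

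Genes with a heat shock element of 3 or more units were compared with all genes that have a RefSeq window. Leaving out the 4 members, 39 such genes were tested, and between arch and thymus 3 were higher by limma (Dnajb6, Hsph1 and Sec62) and 1 was lower (Ccnd3). That is 7.69% higher and 2.56% lower, beside 3.92% and 2.61% of the 6639 tested genes with a window. In adipose tissue against thymus 3 were higher and 1 lower, beside 2.09% and 0.663%. Among these genes Hsph1, a co-chaperone of Hsp70, holds its element inside the transcribed part, 15 to 27 bases after a start, and the element of Timm9, an import chaperone of the space between the membranes, lies 190 to 202 bases before its start. The runs with flanking bases are shown because 1 of these genes rose and the other was not called.
Hsph1: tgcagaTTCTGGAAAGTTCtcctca
Timm9: taggctTTCTAGAAATTTCgacaga
Between arch and thymus Hsph1 rose by 5.80 ± 0.42 (SE), while Timm9 was at -0.15 ± 0.74 with an adjusted p of 0.929 by limma.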

How the data were processed

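Polyadenylated RNA of sorted DP cells was sequenced as 26 libraries, and the authors deposited 1 table of 13765 genes in 12 columns, 1 per pool. Reads were checked with FastQC 0.11.5 and aligned with STAR 2.6.0c to GRCm38, per the submitters' processing notes, and no source used here gives the counting tool, annotation or strand setting. The deposited values are a normalised signal: read counts divided by a factor per column, so that low values step in whole reads. Whole reads were recovered for 100% of the 120369 values above 0 (within 0.01 of a whole number), giving 11577253 to 34599519 reads per column. All 12 columns matched a labelled pool.

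Values were tested as log2(value + 20), where 20 equals 10.5 to 35.3 reads, with limma 3.58.1 (trend, R 4.3.3) on the 9106 genes at 100 or more in at least 4 columns. All 4 members passed this filter. P-values are two-sided and were adjusted by Benjamini-Hochberg over all genes tested, with calls at 0.05. All 3 tissues entered 1 fit. Columns rather than libraries were the replicates. The steps were tested on simulated data.

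The members and gene lists were chosen with earlier results of these data known. Named in the text are the 4 members, every called gene of a list (up to 6), up to 2 abundant genes of it that were not called, the main paralogs and the 5 nearest profiles per member. Levels per kb used GENCODE vM21 transcripts. Motifs were searched in RefSeq windows of 300 bases. A floor of 3 reads in each pool of a group bounds a fold against 0, for counting error only.

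The alternatives were pseudocounts of 5 and 100, no filter or 300 in 4 columns, TMM or equal totals, edgeR 4.0.16 and DESeq2 1.42.0 on recovered reads, array weights, a block for pool number, and fits without each pool, without pool 1 of every tissue or without the 3 columns of fewest reads per library (shallow columns). A fit without the 3 columns that carry other cells' markers was added after seeing the data.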

Additional observations from a re-analysis of the deposited data

Results flagged for a closer look

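Of 18 groups of 4 pools checked for a value apart from the rest, 1 held such a value, and chance alone gives about 1 in 20. In arch, the normalised count of Trap1 in pool 3 was 1914.8, while the other 3 pools held 165, 137 and 99.5. The gap to the nearest pool was 0.964 of the whole range, above the 95% limit for 4 values. Arch pool 3 had the lowest fibroblast sum of the arch pools, at 0.0753 CPM, and whether that bears on Trap1 was not tested.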

How the results depend on the processing

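Hspd1 and Hspe1 kept their direction in all 3 comparisons under all 25 alternatives, at 3.33 to 4.02, 1.12 to 1.69 and 2.00 to 2.52 for Hspd1 and 4.78 to 5.85, 1.76 to 2.43 and 2.71 to 3.63 for Hspe1 (log2; arch against thymus, adipose tissue against thymus, arch against adipose tissue). Leaving out 1 pool gave 3.33 to 3.88, 1.12 to 1.68 and 2.00 to 2.52 for Hspd1, 5.16 to 5.65, 1.76 to 2.43 and 2.93 to 3.60 for Hspe1, -0.47 to 0.23, 0.26 to 0.97 and -1.01 to -0.34 for Hspa9 and -3.01 to -1.68, -0.14 to 0.74 and -3.43 to -2.09 for Trap1. Hspa9 between arch and thymus was 0.57 without the 3 shallow columns. The causes of the changes in counts below were not tested, beyond the fewer samples or genes that a setting holds. Genes called between arch and thymus (598) became 365 by edgeR, 1007 by DESeq2, 308 without the 3 shallow columns, 336 without pool 1 and 345 without the marker-carrying columns. Between adipose tissue and thymus (259) they became 539 by DESeq2, 161 without pool 1 and 573 with array weights. Between arch and adipose tissue (16) they became 9 with a pseudocount of 5, 2 without a filter, 8 by edgeR, 167 by DESeq2 and 0 without the shallow or the marker-carrying columns. Leaving out 1 pool gave 404 to 620, 169 to 317 and 2 to 17 genes, the lowest 2 without adipose pool 2 or 4. Of the 74 machinery genes, arch against thymus called 1 with a pseudocount of 100, no filter, edgeR, array weights or without the shallow columns, 4 with equal totals and 6 by DESeq2. Leaving out 1 pool gave 0 to 3 (3 without arch pool 1: Idh2, Timm44 and Tomm40) and 0 to 0 in the other comparisons, where array weights called 1 between adipose tissue and thymus and DESeq2 called 1 between arch and adipose tissue. Equal totals moved the median of all genes between arch and thymus from -0.20 to -0.35 and the calls from 363 higher and 235 lower to 296 higher and 343 lower. Of 550 refits of the called list genes, 481 kept the call and 69 lost it. The labels do not say whether pool numbers pair the tissues. The 12 correlations of same-numbered pools ran from -0.0316 to 0.0756, with 6 of 12 best with their own number. Correlations this weak between small pools cannot settle it. A replicate block on pool number gave 608, 243 and 12 calls. In arch, Trap1 had 203 reads in pool 1 and 2371 in pool 3, columns of 26093045 and 26551456 reads, and 72 and 64 reads in the shallow pools 2 and 4.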
